A study of Mus musculus with 8 samples.

Results

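M1 macrophages, activated with LPS and IFN-γ, were set directly against M2 macrophages, activated with IL-4, without the M0 arrays in the contrast. The arrays were chosen by their titles, which name the condition, and 5 of the 8 arrays of the series entered the comparison, 3 of M1 and 2 of M2. The macrophages were grown from the bone marrow of wild-type animals of C57BL/6J background, in medium with L929 cell supernatant as the source of macrophage colony stimulating factor and replated without it on day 7. M1 cultures received LPS at 100 ng/ml together with IFN-γ at 20 ng/ml and M2 cultures IL-4 at 20 ng/ml, and RNA was taken 24 hours later for Affymetrix mouse arrays. The 3 M0 arrays, of cells in media alone, are quoted below only as context. The titles call each array a biological replicate. The series design says that replicates came from different mice. The methods, however, name both independent mice and in vitro replicates without saying which array is which. Every n is therefore a number of arrays, and p-values measure the spread between these arrays, which may in part be technical.

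Macrophages change their gene program with the signals they meet. LPS is a bacterial cell wall product sensed by the Toll-like receptor Tlr4, which activates NF-κB and leads to release of interferons, while IFN-γ signals through STAT factors and raises antimicrobial GTPases and antigen processing genes. IL-4, a cytokine of type 2 immunity, acts mainly through Stat6 and is known for raising arginase, lectin receptors and genes of tissue repair and cell fusion.

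Intensities are given in linear units as the authors' RMA normalization left them, in the order of the replicate numbers, and differences are log2 values of M1 minus M2. The median intensity of the 5 arrays was 38.9 to 39.9 units, so levels under about that value are close to background and the size of a difference that rests on them is uncertain. Log2 intensities correlated at 0.994 to 0.995 between M1 arrays, at 0.994 between the M2 arrays and at 0.965 to 0.971 between M1 and M2 arrays. The median difference over all genes was 0.003.

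M1 and M2 macrophages differed in 1350 named genes at an adjusted p under 0.05 from limma and at least 2-fold, of which 622 were higher in M1 and 728 higher in M2 macrophages. These are 3.42% and 4.0% of the 18193 genes tested, or 7.42% in either direction, and counts of list members below are to be read against these shares. The gene lists were written with earlier results of these data known, so their counts are not independent evidence. Some genes stand in several lists, so the counts of different lists overlap. At any fold, 1790 genes were higher in M1 (9.84%) and 1974 in M2 macrophages (10.9%). At probe level 1128 probes were higher in M1 and 1392 higher in M2 macrophages, 2.50% and 3.09% of 45037. The differences reached far: 208 genes were at least 4-fold higher in M1 and 199 in M2 macrophages, and 8 and 9 were at least 64-fold apart. The methods' t-test, run on the same log2 values with adjustment, called 306 and 249 genes. The 1350 genes also had M1 and M2 arrays that did not overlap, which was true of 46.3% of all genes. In the other direction, the 95% confidence interval of the difference lay within 2-fold for 15880 genes (87.3%), and for 7879 of the 9901 genes with a mean above 64 units (79.6%). The number of arrays, above all the 2 of M2, limits the precision of every value, and in bulk RNA fewer cells of a kind and less RNA per cell cannot be told apart.

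**Figure D1:**
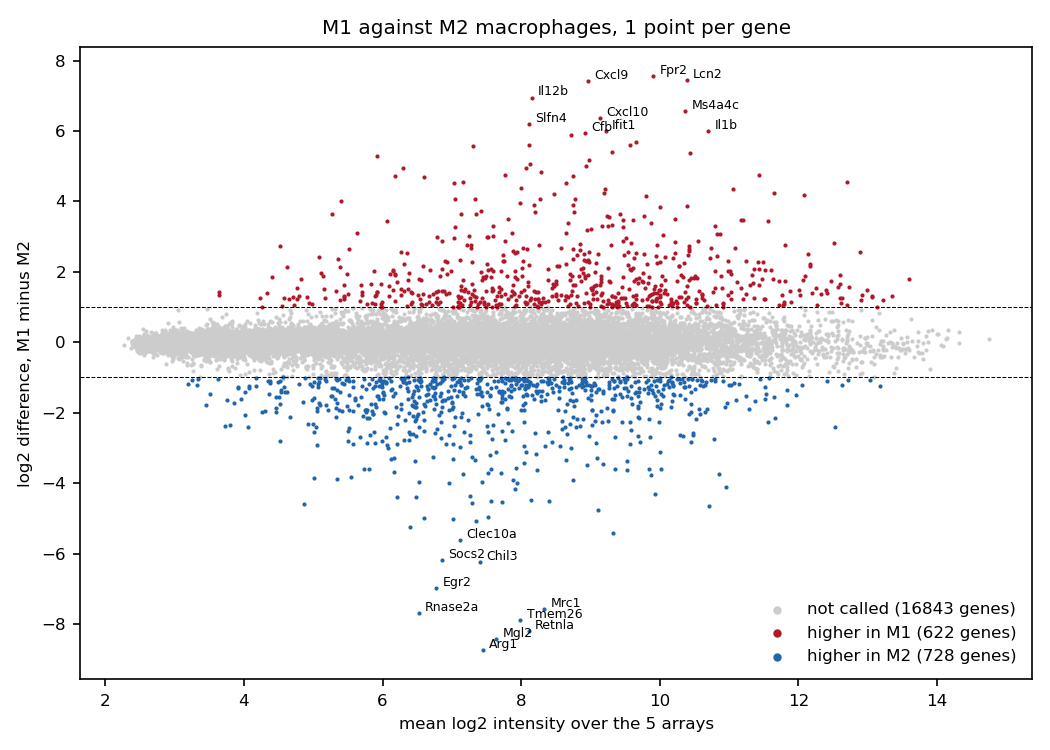
Log2 difference of M1 minus M2 (vertical axis) against the mean log2 intensity over the 5 arrays (horizontal axis), 1 point per gene, with the 2-fold limits as dashed lines. Red points are the 622 genes called higher in M1, blue points the 728 called higher in M2, and the 10 largest differences on each side are named.

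The genes that set M1 macrophages apart most were Fpr2, Lcn2 and Cxcl9. Fpr2, a receptor for formylated and other chemotactic peptides, was at 7358, 7827 and 8276 units in the M1 arrays and 34.7 and 48.4 units in the M2 arrays (log2 difference 7.57, standard error 0.16, adjusted p = 4.7e-10). Lcn2, which binds bacterial iron carriers, was at 11783, 10909.6 and 9178 units in the M1 arrays and 43.4 and 84.9 units in the M2 arrays (log2 difference 7.44, standard error 0.24, adjusted p = 1.1e-08). Every M1 array lay far above both M2 arrays for these genes, although the M2 values of Fpr2 and the lower M2 value of Lcn2 stood near the array median. For Cxcl9, whose values are given below, both M2 arrays lay under the array median. Ms4a4c, a membrane protein of the Ms4a family, was at 8138, 8665 and 7678 units in the M1 arrays and 79.2 and 94.0 units in the M2 arrays (log2 difference 6.56, standard error 0.13, adjusted p = 4.5e-10). Saa3, an acute phase protein, was among the brightest of the genes that differed, at 24128, 23327 and 23419 units in the M1 arrays and 884 and 1133 units in the M2 arrays, so that its difference of 4.56 rested on measured signal on both sides. Cfb, complement factor B, differed by 5.95 and Cd200, an inhibitory ligand of myeloid cells, by 5.06. Less studied genes in this group were the receptor gene Gpr31b (5.57) and the globin gene Adgb (5.29), with M2 means of 16.1 and 6.75 units.

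On the M2 side Arg1, Mgl2 and Retnla led. Arg1, the arginase that turns arginine into ornithine, was at 7699 and 5761 units in the M2 arrays and 17.6, 12.9 and 16.2 units in the M1 arrays (log2 difference -8.75, standard error 0.17, adjusted p = 3.9e-10). Mgl2, a lectin receptor for galactose residues, was at 6608 and 6678 units in the M2 arrays and 15.7, 22.3 and 20.8 units in the M1 arrays (log2 difference -8.42, standard error 0.16, adjusted p = 3.9e-10). Neither gene reached the array median in any M1 array, so each ratio is set by signal against background. Atp6v0d2, a proton pump subunit, had signal on both sides, at 5673 and 6583 units in the M2 arrays and 146, 133 and 148 units in the M1 arrays (log2 difference -5.42, standard error 0.13, adjusted p = 1.7e-09). S100a4, a calcium-binding protein, was at 4632 and 3431 units in the M2 arrays and 177, 156 and 117 units in the M1 arrays, with M0 arrays at 3827 to 4451 units, and Crip1, a small LIM protein, at 6563 and 5251 units in the M2 arrays and 305, 333 and 250.2 units in the M1 arrays, with M0 arrays at 5909 to 6532 units. For these genes the M0 range overlapped the M2 arrays, whereas the M0 arrays of Arg1 lay at 10.5 to 12.3 units, near those of M1.

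**Figure D2:**
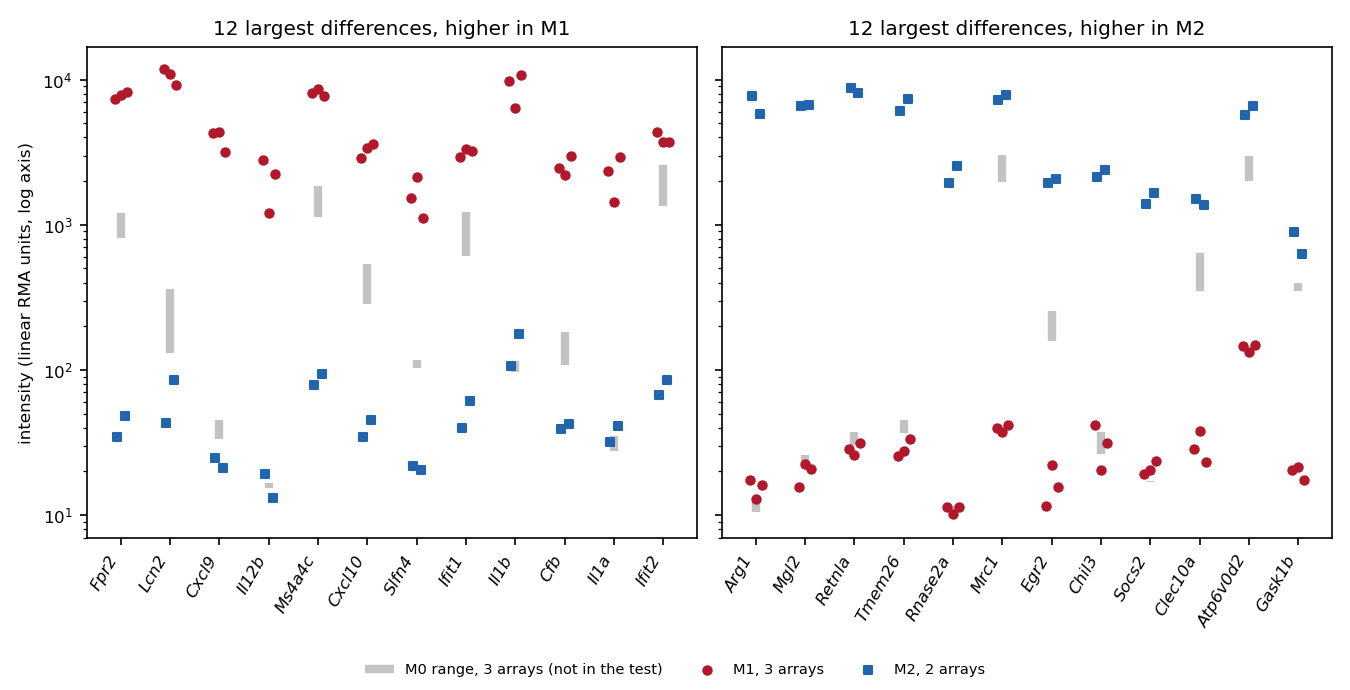
Intensity in linear units on a log axis for the 12 genes with the largest difference on each side, with red circles for the 3 M1 arrays, blue squares for the 2 M2 arrays and a grey bar for the range of the 3 M0 arrays, which were not in the test. The M1 and M2 arrays are separated for each gene shown, while the grey bars stand near M2, near M1 or between them depending on the gene.

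Where the M0 arrays stood was counted for the called genes as a description. For genes higher in M1, the 3 M0 arrays lay wholly between the M1 and M2 arrays in 317 of 622 genes (51.0%), overlapped the M2 arrays in 143 and the M1 arrays in 74, and lay below both groups in 72 and above both in 14. For genes higher in M2 they lay between in 286 of 728 genes (39.3%), overlapped the M2 arrays in 206 and the M1 arrays in 119, and lay above both groups in 73 and below both in 44. Fpr2 was one of those between, with M0 arrays at 812 to 1205 units, and so was Mrc1, at 1964 to 3046.

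Of 22 inflammatory cytokine genes, 12 were higher in M1, 1 was higher in M2 macrophages and 9 were not called, with a median difference of 1.61. Il12b, the shared subunit of IL-12 and IL-23, was at 2792, 1197 and 2252 units in the M1 arrays and 19.2 and 13 units in the M2 arrays (log2 difference 6.95, standard error 0.30, adjusted p = 7.8e-08). Il1b, a fever-inducing cytokine, was at 9836, 6392 and 10693 units in the M1 arrays and 107 and 177 units in the M2 arrays (log2 difference 5.99, standard error 0.24, adjusted p = 5.5e-08), and Il1a differed by 5.89. Il6, an inducer of the acute phase response, was at 2875, 753 and 3416 units in the M1 arrays and 35.8 and 104 units in the M2 arrays (log2 difference 5.0, standard error 0.58, adjusted p = 0.00012). All 3 M1 arrays were above both M2 arrays, but M1 replicate 2 was the lowest M1 array for each of these genes, and the lowest by the widest margin for Il6. The difference of Il6 was 5.68 without M1 replicate 2, 4.23 without M2 replicate 1 and 5.77 without M2 replicate 2, and with an intensity trend and robust variances it missed the threshold (adjusted p = 0.0667 from limma), as did Inhba (0.065), the activin subunit, which differed by 3.10 at this probe and by 0.13 at another.

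Smaller differences in the same list were those of Ebi3 (2.68), a subunit of IL-27 and IL-35, of Il18 (2.66) and of Il1rn (2.45), the natural antagonist of IL-1. Tnf was at 727, 723 and 1070.4 units in the M1 arrays and 138 and 187 units in the M2 arrays (log2 difference 2.36, standard error 0.19, adjusted p = 1e-05), and Il15, a growth factor of NK and memory T cells, differed by 1.59. The only member higher in M2 was Csf1, the macrophage growth factor, at 1363 and 2358 units in the M2 arrays and 411, 517 and 567 units in the M1 arrays (log2 difference -1.86, standard error 0.22, adjusted p = 0.00014), and without M2 replicate 1 a second member was called higher in M2. Il10, Il23a, Csf2 and Ifnb1 were near or under the array median on both sides, with means of 14.7 and 14, 10.4 and 10.6, 31.5 and 30.4, and 26.5 and 21.3 units in M1 and M2.

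The 23 chemokine genes split evenly, with 8 higher in M1, 8 higher in M2 and 7 not called, and a median difference of -0.07. Cxcl9, which attracts T cells through Cxcr3, was at 4259, 4373 and 3195 units in the M1 arrays and 24.7 and 21.0 units in the M2 arrays (log2 difference 7.42, standard error 0.16, adjusted p = 7.8e-10). Cxcl10, a ligand of the same receptor, differed by 6.37, and the Cxcl11 transcript by 4.53. Cxcl1 (2.30) and Cxcl2 (2.54), which attract neutrophils, were also higher in M1. Cxcl3, of the same function, differed by 4.55, or by 3.51 without M2 replicate 1 and 5.59 without M2 replicate 2. With an intensity trend and robust variances Cxcl1 (adjusted p = 0.0712) and Cxcl3 (0.0758) missed the threshold. Ccl5, an attractant of T cells and monocytes, was at 20259.8, 20689 and 19662 units in the M1 arrays and 4746 and 7223 units in the M2 arrays (log2 difference 1.79, standard error 0.17, adjusted p = 2.8e-05).

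Of the chemokines higher in M1, 6 of 8 were of the CXC class, and of those higher in M2, 7 of 8 were of the CC class. Ccl24, an attractant of eosinophils, was at 1345 and 3585 units in the M2 arrays and 99.3, 95.5 and 95.1 units in the M1 arrays (log2 difference -4.51, standard error 0.31, adjusted p = 2.1e-06), a difference of -5.21 without M2 replicate 1 and -3.80 without M2 replicate 2. Ccl17 was at 728 and 1113 units in the M2 arrays and 59.6, 56.0 and 56.5 units in the M1 arrays (log2 difference -3.97, standard error 0.17, adjusted p = 7.8e-08), and Ccl22, which with Ccl17 binds Ccr4 on T helper cells, at 1121 and 1194 units in the M2 arrays and 381, 215 and 340.3 units in the M1 arrays (-1.93). Ppbp, a platelet chemokine, differed by -2.89 and Ccl8 by -1.51. Ccl6 was bright on both sides, at 10618 and 10127 units in the M2 arrays and 4916, 4468 and 4198 units in the M1 arrays (-1.20). The monocyte attractants Ccl7 (-1.59) and Ccl12 (-1.54) were higher in M2 in the comparison of all 5 arrays, but without M2 replicate 1 their differences were -1.23 and -1.24 with adjusted p of 0.121 and 0.113 from limma.

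All 28 measured genes of the type I interferon response were higher in M1 macrophages, with a median difference of 2.94 and a range from 1.23 to 6.01. The list was written with results of these data known, so this count is not independent evidence. Ifit1, which binds foreign RNA, was at 2931, 3348 and 3222 units in the M1 arrays and 39.9 and 60.6 units in the M2 arrays (log2 difference 6.01, standard error 0.17, adjusted p = 4.9e-09). Ifit2 and Ifit3 of the same family differed by 5.70 and 5.40, Oasl1 by 5.38 and the exonuclease Isg20 by 5.18. Rsad2, the antiviral protein viperin, was at 9529, 10894 and 10466 units in the M1 arrays and 356 and 413 units in the M2 arrays (log2 difference 4.75, standard error 0.13, adjusted p = 3.6e-09). Irf7, the factor that amplifies interferon production, was at 7263, 6735 and 7442 units in the M1 arrays and 372 and 325 units in the M2 arrays (log2 difference 4.36, standard error 0.13, adjusted p = 5.6e-09). Both M2 arrays were below all M1 arrays for every member. A lack of overlap also held for all 1350 genes called and for 46.3% of all genes. The smallest difference was that of Irf9, a subunit of the interferon-activated complex ISGF3, at 739, 751 and 718 units in the M1 arrays and 322 and 307 units in the M2 arrays (log2 difference 1.23, standard error 0.12, adjusted p = 3.5e-05).

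The M0 arrays lay between M1 and M2 in 22 of these 28 genes and overlapped the M1 arrays in 5. Rsad2 stood at 3656 to 5596 units in M0 and Ifit1 at 606 to 1234, above the M2 arrays. M1 replicate 2 was the highest of the M1 arrays in 20 of the 28, the array that was lowest in 9 of the 12 cytokine genes.

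Promoter sequences are shown for Cxcl10 and Ifit1 because they hold the interferon-stimulated response element ISRE, searched on both strands as GAAA, any 2 bases and GAAA again. RefSeq promoters of build GRCm38.p6, from 250 bases before to 50 bases after the start, were at hand for 14452 of the 18193 genes, and 524 of them (3.63%) held this motif. The share was 12.9% among genes higher in M1 (64 of 497), 4.71% among genes higher in M2 (28 of 594) and 11 of 21 in the interferon list. Members of that list were chosen with results of these data known. The 250 bases before the start are printed 5′ to 3′ on the strand of the gene, with the motif in capitals. Cxcl10 lies on the minus strand at chr5:92348890-92349139 and Ifit1 on the plus strand at chr19:34640639-34640888, where the motif matched at 2 places.
Cxcl10: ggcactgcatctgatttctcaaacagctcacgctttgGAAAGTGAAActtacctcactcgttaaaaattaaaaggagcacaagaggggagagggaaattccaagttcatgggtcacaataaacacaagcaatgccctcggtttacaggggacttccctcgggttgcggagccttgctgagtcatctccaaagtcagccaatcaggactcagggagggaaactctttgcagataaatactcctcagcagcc
Ifit1: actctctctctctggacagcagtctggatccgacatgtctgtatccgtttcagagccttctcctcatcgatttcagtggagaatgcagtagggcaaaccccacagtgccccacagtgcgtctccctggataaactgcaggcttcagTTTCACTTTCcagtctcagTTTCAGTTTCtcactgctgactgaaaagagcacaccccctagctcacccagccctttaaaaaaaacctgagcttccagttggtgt
The match begins 213 bases before the start in Cxcl10 and 104 and 85 bases before it in Ifit1. A match describes the letters and is not a measured binding site.

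Of 9 interferon-induced GTPases, which act on vacuoles that hold microbes, 7 were higher in M1 and 2 were not called, with a median of 2.25. Gbp6 was at 1019, 1445 and 1154 units in the M1 arrays and 43.5 and 39.3 units in the M2 arrays (log2 difference 4.85, standard error 0.16, adjusted p = 1.3e-08) and Iigp1 at 323, 570.5 and 309 units in the M1 arrays and 32.9 and 28.6 units in the M2 arrays (3.65). Irgm1, Irgm2 and Igtp differed by 2.25, 2.08 and 2.40. Gbp2 (0.85) and Gbp8 (0.77) did not reach 2-fold.

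Among 17 genes in the NF-κB pathway and its feedback loop, 11 were higher in M1, none higher in M2 and 6 not called, with a median of 1.5. Nfkbiz, an atypical IκB protein that is needed for secondary response genes, was at 770.5, 648 and 871 units in the M1 arrays and 38.9 and 61.8 units in the M2 arrays (log2 difference 3.95, standard error 0.20, adjusted p = 2.3e-07). Traf1, an adaptor of TNF receptors, was at 1293, 1089.9 and 1435 units in the M1 arrays and 72.6 and 98.2 units in the M2 arrays (log2 difference 3.91, standard error 0.17, adjusted p = 7.6e-08), and Irak3, an inhibitor of Toll-like receptor signaling, differed by 3.47. The inhibitors Nfkbia (1.31) and Tnfaip3 (1.34) and the subunit Nfkb2 (1.85) were higher by smaller amounts. Rela, the main transactivating subunit, had means of 1987 units in M1 and 1995 in M2, a difference of -0.00 with an interval of -0.32 to 0.31. In all 11 genes called higher in M1, M2 replicate 2 was above M2 replicate 1, against 332 of all 622 genes higher in M1.

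Of 18 pattern recognition receptors, 8 were higher in M1, 2 higher in M2 and 8 not called, with a median of 0.91. Fpr2, reported above, had the largest difference among them and is also counted with the chemokine and peptide receptors. Clec4e, the receptor Mincle for mycobacterial glycolipids, was at 11359, 9405 and 10687 units in the M1 arrays and 373 and 805 units in the M2 arrays (log2 difference 4.25, standard error 0.26, adjusted p = 8.5e-07). Tlr2, which senses bacterial lipoproteins, was at 4083, 3166 and 4681 units in the M1 arrays and 210.5 and 336 units in the M2 arrays (log2 difference 3.88, standard error 0.21, adjusted p = 4.2e-07), and its partner Tlr1 differed by 2.28, but by 1.36, which did not pass (adjusted p = 0.115 from limma), in the absence of M2 replicate 2 and by 3.19 in that of M2 replicate 1. Cd14, the LPS co-receptor, was at 16320.4, 14164 and 15593 units in the M1 arrays and 2283 and 2998 units in the M2 arrays (2.55) and Nod1, a sensor of peptidoglycan, differed by 1.99. The opposite direction was seen for the LPS receptor itself, since Tlr4 was at 586 and 588 units in the M2 arrays and 132, 181 and 157 units in the M1 arrays (log2 difference -1.92, standard error 0.15, adjusted p = 6.3e-06). Tlr8 was the other member higher in M2, at -1.01, and fell short of 2-fold without M1 replicate 1 (-0.99), M1 replicate 3 (-0.98) or M2 replicate 2 (-0.96).

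Of 15 costimulatory and checkpoint ligands, 8 were higher in M1, 3 higher in M2 and 4 not called, with a median of 1.60. The PD-1 ligands went opposite ways. Cd274, which encodes PD-L1, was at 5874, 4736 and 5667 units in the M1 arrays and 916 and 1336 units in the M2 arrays (log2 difference 2.29, standard error 0.17, adjusted p = 5.1e-06). Pdcd1lg2, which encodes PD-L2, was at 924 and 1629 units in the M2 arrays and 55.8, 57.5 and 49.7 units in the M1 arrays (log2 difference -4.50, standard error 0.21, adjusted p = 1.2e-07). Cd40, the receptor through which T cells license macrophages, was at 2912, 2345 and 2893 units in the M1 arrays and 427 and 556 units in the M2 arrays (log2 difference 2.47, standard error 0.16, adjusted p = 1.4e-06), and Cd86 differed by 1.60 at its brightest probe and by 0.45 at another, while Cd80 had an interval of -0.12 to 0.57. Icam1, an adhesion ligand, differed by 1.82 and Slamf7 by 2.40. Cd83, a marker of mature antigen-presenting cells, was higher in M2, at 1089.6 and 1182 units in the M2 arrays and 182, 158 and 137 units in the M1 arrays (log2 difference -2.84, standard error 0.15, adjusted p = 2.7e-07), as was Slamf1 (-2.30).

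Antigen presentation split by class. Of 14 genes of MHC class I processing, 5 were higher in M1 and 9 not called, with a median of 0.35. Nlrc5, the transactivator of class I genes, was at 626, 750.1 and 646 units in the M1 arrays and 214 and 222 units in the M2 arrays (log2 difference 1.62, standard error 0.13, adjusted p = 8.5e-06), the immunoproteasome subunits Psmb9 and Psmb8 differed by 1.37 and 1.07, and the peptide transporter genes Tap1 and Tap2 by 2.03 and 1.31, although the other probes of Tap1 were not called. The class I heavy chain H2-K1 and the light chain B2m were bright on both sides and differed by 0.34 and 0.13. Of 11 genes of MHC class II, 6 were higher in M2, 1 higher in M1 and 4 not called, with a median of -1.29.

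Cd74, the invariant chain that guides class II molecules, was at 15543 and 16406 units in the M2 arrays and 2909.9, 2867 and 3320.4 units in the M1 arrays (log2 difference -2.40, standard error 0.13, adjusted p = 3.7e-07). H2-Aa was at 4268 and 7037 units in the M2 arrays and 680.5, 897 and 899.5 units in the M1 arrays (log2 difference -2.74, standard error 0.21, adjusted p = 5e-06) and H2-Eb1 at 1900.1 and 3923 units in the M2 arrays and 357, 432 and 362 units in the M1 arrays (log2 difference -2.84, standard error 0.25, adjusted p = 1.5e-05). The M2 arrays were above the M1 arrays for both, with M2 replicate 2 the higher of the pair, as it was for all 6 members called higher in M2. Ifi30, a lysosomal thiol reductase, differed by -1.64, H2-DMa by -1.29 and the transactivator Ciita by -1.61, and another probe of H2-DMa, at -0.39, was not called. H2-Ab1 (-0.63) did not reach 2-fold. The member higher in M1, H2-Ob, had means of 19.4 units in M1 and 6.91 in M2, and with a lower limit of 64 units its call and that of Ciita were lost.

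Of 21 genes of STAT and SOCS signaling, 3 were higher in M1, or 5 without M2 replicate 2, and 5 higher in M2, with a median of 0.37. The SOCS genes, which feed back on cytokine receptors, divided between the states. Socs3 was at 1666, 1586 and 1534 units in the M1 arrays and 40.5 and 89.9 units in the M2 arrays (log2 difference 4.72, standard error 0.26, adjusted p = 4.3e-07). Socs2 was at 1385 and 1666 units in the M2 arrays and 19.1, 20.5 and 23.7 units in the M1 arrays (log2 difference -6.18, standard error 0.14, adjusted p = 1.5e-09), Cish, its close relative, at 1097 and 1531 units in the M2 arrays and 168, 153 and 182 units in the M1 arrays (-2.95), and Socs6 differed by -2.42, whereas Socs1 (-0.80) did not pass. Stat2 (2.49) and Stat4 (2.02) were higher in M1, Stat4 from M2 arrays at 29.4 and 32.2 units. Stat6, which carries the IL-4 signal, had means of 1683 and 1689 units in M1 and M2 and an interval of -0.28 to 0.27. Il6st, the shared receptor chain of the IL-6 family, was at 2309 and 2586 units in the M2 arrays and 210.5, 236 and 219.8 units in the M1 arrays (log2 difference -3.46, standard error 0.13, adjusted p = 2.7e-08), and the IFN-γ receptor chain Ifngr1 was lower in M1 than in M2, at 539, 659.8 and 491 against 1499 and 1486 units (-1.42).

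Of 31 genes known as effectors of IL-4 in macrophages, 27 were higher in M2, none higher in M1 and 4 not called, with a median of -4.50. This list was written with results of these data known, so its direction is not independent evidence. Retnla, a secreted protein of type 2 inflammation, was at 8699.9 and 8086 units in the M2 arrays and 28.3, 26.0 and 31.3 units in the M1 arrays (log2 difference -8.20, standard error 0.13, adjusted p = 1.9e-10). Tmem26, a membrane protein, was at 6113 and 7413 units in the M2 arrays and 25.5, 27.5 and 33.3 units in the M1 arrays (log2 difference -7.88, standard error 0.15, adjusted p = 3.9e-10). Mrc1, the mannose receptor, was at 7263 and 7793 units in the M2 arrays and 39.5, 37.5 and 41.6 units in the M1 arrays (log2 difference -7.57, standard error 0.12, adjusted p = 1.9e-10), with M0 arrays at 1964 to 3046 units. The M2 arrays were above the M1 arrays in each, and the M1 arrays of Mrc1 lay far under those of M0.

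Rnase2a, a ribonuclease of the family of eosinophil-associated ribonucleases, differed by -7.68 and Chil3, the chitinase-like protein Ym1, by -6.24. Ch25h, which makes an oxysterol from cholesterol, was at 1557 and 1669.8 units in the M2 arrays and 125, 155 and 207 units in the M1 arrays (-3.35). Il27ra and Klf4 were higher in M2 by smaller amounts (-2.18 and -2.13). Alox15, Cd209a and Cd209d, which other IL-4-exposed macrophages are known to express, were under the array median in both groups and not called. The fourth member not called was Chil4, whose level is uncertain, since only the probe annotated to it alone was used and a probe shared by Chil4 and Chil3 entered no count of genes.

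Retnla and Tmem26 are shown with their promoters because these hold the spacing known for Stat6 sites, TTC and GAA with 4 bases between them, which reads alike on both strands. It was present in 1003 of 14452 promoters (6.94%), in 7.65% of those of genes higher in M1 and 9.76% of those of genes higher in M2, and in 5 of 22 of the IL-4 list. The stretches are the 250 bases before the start on the plus strand, chr16:48842359-48842608 for Retnla with 1 match and chr10:68723496-68723745 for Tmem26 with 2, and capitals mark the motif.
Retnla: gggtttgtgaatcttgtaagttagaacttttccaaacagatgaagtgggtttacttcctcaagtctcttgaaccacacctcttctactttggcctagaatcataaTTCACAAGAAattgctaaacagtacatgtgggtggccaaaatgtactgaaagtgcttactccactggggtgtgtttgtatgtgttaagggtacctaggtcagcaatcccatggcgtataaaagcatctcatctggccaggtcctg
Tmem26: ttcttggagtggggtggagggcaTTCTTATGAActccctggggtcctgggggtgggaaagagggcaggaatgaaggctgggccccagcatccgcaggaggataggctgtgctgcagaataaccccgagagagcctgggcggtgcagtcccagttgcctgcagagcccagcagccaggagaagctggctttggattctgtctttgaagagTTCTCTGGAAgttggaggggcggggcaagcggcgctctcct
The match begins 145 bases before the start in Retnla and 227 and 41 bases before it in Tmem26. Nothing follows from these letters about binding in these cells.

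Of 28 transcription factors linked to polarization, 3 were higher in M1, 9 higher in M2 and 16 not called, with a median of -0.39. Egr2, an immediate early zinc finger factor, was at 1932 and 2070.2 units in the M2 arrays and 11.6, 22.1 and 15.5 units in the M1 arrays (log2 difference -6.98, standard error 0.22, adjusted p = 1.1e-08). Pparg, the nuclear receptor of lipid metabolism, was at 517 and 405 units in the M2 arrays and 20.8, 18.5 and 27.3 units in the M1 arrays (log2 difference -4.39, standard error 0.18, adjusted p = 5.5e-08), and Irf4 at 301 and 372 units in the M2 arrays and 27.6, 27.6 and 22.6 units in the M1 arrays (-3.69). Myc was at 772 and 648 units in the M2 arrays and 63.9, 86.8 and 83.6 units in the M1 arrays (log2 difference -3.19, standard error 0.16, adjusted p = 2.4e-07), and Bhlhe40, a repressor that supports proliferation of macrophages, differed by -2.64. The Batf family divided, with Batf at 1852, 1966 and 1963 units in the M1 arrays and 389.6 and 400.4 units in the M2 arrays (log2 difference 2.29, standard error 0.12, adjusted p = 3.3e-07) and Batf3 at 1066 and 904 units in the M2 arrays and 71.2, 93.3 and 63.2 units in the M1 arrays (log2 difference -3.71, standard error 0.17, adjusted p = 1.3e-07). Cebpb, a factor of the acute phase response, was higher in M1, at 5330.1, 4515 and 5357 against 1725 and 2272 units (1.35). Spi1, which sets myeloid identity, Irf8 and Maf had intervals of -0.43 to 0.11, -0.04 to 0.52 and -0.15 to 0.65.

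**Figure D3:**
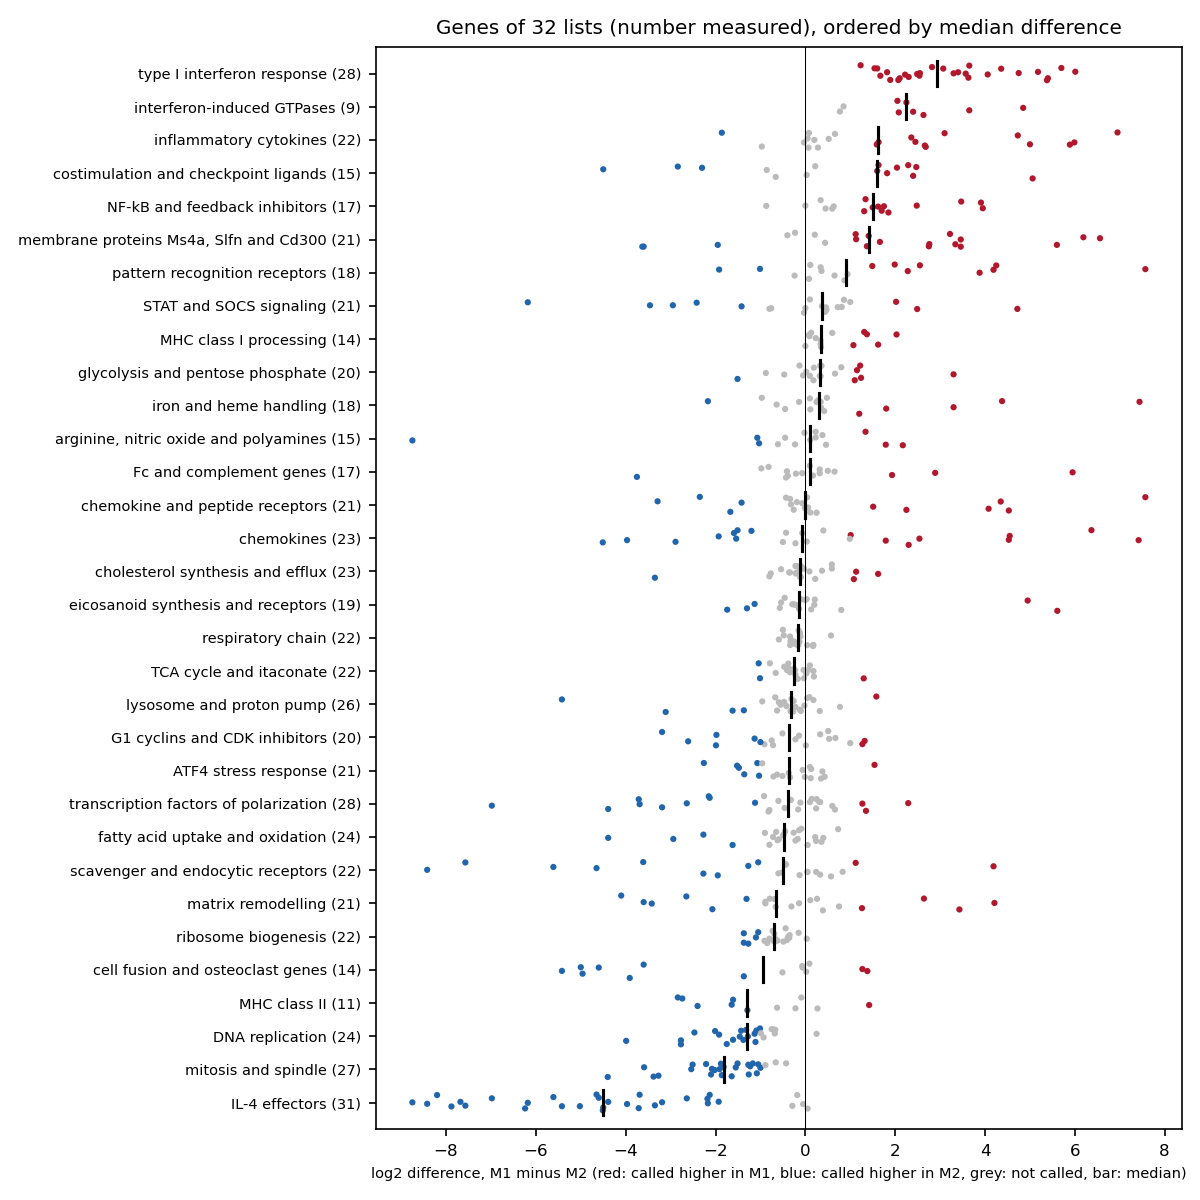
Log2 difference of M1 minus M2 for each gene of the 32 gene lists, ordered by their median (black bar), with the number of genes measured in parentheses, red for genes called higher in M1, blue for genes called higher in M2 and grey for genes not called. The type I interferon list stands wholly to the right, the IL-4, mitosis and DNA replication lists stand to the left, and the metabolic lists lie around 0.

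The lists differed in how many calls the methods' t-test gave on log2 values with adjustment. It called 26 interferon, 25 IL-4 effector, 8 cytokine and 5 GTPase genes in the direction of the larger count. Fewer were called in NF-κB (6 higher in M1), costimulation (3), pattern recognition (4) and glycolysis (1), and, higher in M2, in MHC class II (3), scavenger receptors (5), matrix (3) and fatty acids (2). Calls higher in M1 also fell for chemokine and peptide receptors (to 3) and for matrix, transcription factor and eicosanoid genes (to 1 each). Those higher in M2 fell to 1 for G1 cyclins and CDK inhibitors. Chemokines gave 2 on each side. All calls higher in M2 were lost for cytokines, eicosanoids, the TCA cycle, ATF4, ribosome biogenesis and chemokine and peptide receptors. All calls higher in M1 were lost for MHC class II, scavenger receptors, the TCA cycle, cholesterol, ATF4, lysosome and cell fusion genes. Nor was any gene higher in M1 called in arginine metabolism, where 1 was higher in M2.

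Genes of cell division were higher in M2 than in M1 macrophages. Of 27 genes of mitosis and the spindle, 24 were higher in M2, none higher in M1 and 3 not called, with a median of -1.82, and of 24 genes of DNA replication 17 were higher in M2, none higher in M1 and 7 not called, with a median of -1.30. The methods' t-test on log2 values with adjustment called 6 and 2 of them. Ube2c, a ubiquitin-conjugating enzyme of mitotic exit, was at 657 and 474 units in the M2 arrays and 22.9, 26.2 and 30.7 units in the M1 arrays (log2 difference -4.40, standard error 0.17, adjusted p = 4.4e-08). Ccna2, cyclin A2, was at 721 and 521 units in the M2 arrays and 70.9, 63.5 and 56.7 units in the M1 arrays (log2 difference -3.27, standard error 0.16, adjusted p = 2.4e-07) and Rrm2, which makes deoxynucleotides, at 812 and 526 units in the M2 arrays and 39.3, 46.5 and 38.4 units in the M1 arrays (log2 difference -3.99, standard error 0.18, adjusted p = 1.2e-07). Birc5, also known as survivin, and the cyclin Ccnb2 differed by -3.38 and -3.59, from M1 arrays under the array median.

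In the replication list, Mcm5 and Mcm7 of the replicative helicase differed by -2.77 and -2.47 and Pcna, the sliding clamp, was at 9143 and 8084 units in the M2 arrays and 3782, 4554 and 3858 units in the M1 arrays (log2 difference -1.09, standard error 0.14, adjusted p = 0.00023). The M0 arrays overlapped the M2 arrays in all 17 replication genes and in 21 of the 24 mitosis genes, and lay above both groups in the other 3. M2 replicate 1 was above M2 replicate 2 in all 17 and all 24. Mki67, a marker of cycling cells, differed by -1.17, at 625 and 503 units in the M2 arrays and 291, 214 and 248 units in the M1 arrays. Cenpf differed by -2.51 at its brightest probe, while its other probes, at -0.43 and -0.44, were not called.

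G1 cyclins and inhibitors went both ways, with 2 of 20 higher in M1, 6 higher in M2 and 12 not called, and a median of -0.36. Myc, reported above with the transcription factors, is also counted here and had the largest difference. Ccnd1 was at 1497 and 962 units in the M2 arrays and 173, 265 and 165 units in the M1 arrays (log2 difference -2.61, standard error 0.23, adjusted p = 1.6e-05) while Ccnd2, another D-type cyclin, was at 609, 666 and 662 units in the M1 arrays and 266 and 253 units in the M2 arrays (log2 difference 1.32, standard error 0.12, adjusted p = 2.4e-05). Ccnd3 was higher in M1 (1.27) only at its brightest probe, with -0.16 and 0.21 at the others. Cdk6, their partner kinase, was higher in M2 (-1.13), and Cdkn1a, which encodes the inhibitor p21, was bright on both sides with an interval of -0.06 to 0.71. In ribosome biogenesis 5 of 22 genes were higher in M2, or 3 without M1 replicate 1, and none higher in M1, with a median of -0.69. Gar1 and Dkc1, parts of the machine that makes pseudouridine in RNA, each differed by -1.37.

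Ube2c and Ccnb2 are shown because their promoters hold the cell cycle element CHR, TTTGAA on either strand. It was present in 2263 of 14452 promoters (15.7%), in 14.1% of those of genes higher in M1, in 20.5% of those of genes higher in M2 and in 16 of the 21 of the mitosis list. In the 250 bases before the start alone, the stretch printed here, it was in 9 of the 21, against 14.1% of all promoters. The CCAAT box, CCAAT on either strand, was in 18 of the same 21, against 42.0% of all promoters. Ube2c lies on the plus strand at chr2:164769679-164769928 and Ccnb2 on the minus strand at chr9:70421555-70421804, and capitals mark the CHR letters.
Ube2c: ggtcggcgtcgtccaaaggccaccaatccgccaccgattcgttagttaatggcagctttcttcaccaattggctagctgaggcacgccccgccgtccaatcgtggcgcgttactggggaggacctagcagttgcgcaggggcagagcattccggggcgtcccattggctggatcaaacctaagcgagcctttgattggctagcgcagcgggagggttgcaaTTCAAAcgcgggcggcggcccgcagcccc
Ccnb2: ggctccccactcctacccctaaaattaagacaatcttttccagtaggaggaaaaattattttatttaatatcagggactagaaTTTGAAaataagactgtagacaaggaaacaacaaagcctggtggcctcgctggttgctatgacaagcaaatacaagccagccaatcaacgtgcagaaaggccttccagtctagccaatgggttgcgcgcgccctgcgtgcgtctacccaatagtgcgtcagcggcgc
The match begins 29 bases before the start in Ube2c and 167 bases before it in Ccnb2. A match of 6 letters describes the sequence only.

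More genes of cell fusion were higher in M2 than in M1. Of 14 fusion and osteoclast genes, 7 were higher in M2 and 2 higher in M1, with a median of -0.94. Atp6v0d2, reported above, had the largest difference and is also counted with the proton pump genes. Ocstamp, a membrane protein of cell fusion, was at 1429.9 and 1474 units in the M2 arrays and 61.0, 33.2 and 49.7 units in the M1 arrays (log2 difference -4.96, standard error 0.21, adjusted p = 7.8e-08) and its relative Dcstamp at 1987 and 2405 units in the M2 arrays and 162, 112 and 168 units in the M1 arrays (log2 difference -3.91, standard error 0.18, adjusted p = 1.5e-07). The integrin Itgb3 differed by -5.00 and the adhesion protein Cdh1 by -4.60, from M1 means of 24.3 and 8.18 units. Acp5, the acid phosphatase of osteoclasts, was the other way, at 749.6, 695 and 879 units in the M1 arrays and 303 and 289.7 units in the M2 arrays (1.38).

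Of 21 matrix genes, 4 were higher in M1, 6 higher in M2 and 11 not called, with a median of -0.66. Mmp12, the macrophage elastase, was at 10756 and 11183 units in the M2 arrays and 922, 554 and 509.7 units in the M1 arrays (log2 difference -4.10, standard error 0.22, adjusted p = 3.7e-07) and Mmp9, a gelatinase, at 3157 and 2689 units in the M2 arrays and 262, 186 and 284 units in the M1 arrays (log2 difference -3.60, standard error 0.18, adjusted p = 2.4e-07). The membrane-bound protease Mmp14 was the reverse, at 2896, 2606 and 3029.6 units in the M1 arrays and 354 and 586 units in the M2 arrays (log2 difference 2.64, standard error 0.19, adjusted p = 3.7e-06). Fn1, fibronectin, was at 792 and 1521 units in the M2 arrays and 82.9, 76.4 and 169.6 units in the M1 arrays (-3.42), and Timp2, an inhibitor of matrix proteases, differed by -2.65. Thbs1, thrombospondin, was higher in M1, at 10802, 5188 and 8567 units in the M1 arrays and 523 and 1006 units in the M2 arrays (log2 difference 3.43, standard error 0.31, adjusted p = 1.9e-05), as was Serpinb2, an inhibitor of plasminogen activators (4.21).

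Of 22 scavenger and endocytic receptors, 2 were higher in M1, or 1 without M2 replicate 1, 9 higher in M2 and 11 not called, with a median of -0.49. Mgl2, reported above, is counted among those higher in M2 and had the largest difference. Marco, which binds bacteria and particles, was at 13592, 11675 and 16526 units in the M1 arrays and 512 and 1122 units in the M2 arrays (log2 difference 4.19, standard error 0.27, adjusted p = 1.6e-06). Clec7a, the β-glucan receptor Dectin-1, was at 11660.4 and 11547 units in the M2 arrays and 435, 538 and 425 units in the M1 arrays (log2 difference -4.65, standard error 0.14, adjusted p = 7.1e-09). Cd36, a receptor for oxidized lipids, was at 7925 and 7605 units in the M2 arrays and 1846, 2100.2 and 1085 units in the M1 arrays (log2 difference -2.27, standard error 0.23, adjusted p = 5.1e-05). Trem2, a lipid-sensing receptor, was at 5424 and 4008 units in the M2 arrays and 459, 407 and 296 units in the M1 arrays (-3.61), with a second probe at 0.21 that was not called. Axl, a receptor for apoptotic cells, was higher in M1 (1.12) at its brightest probe, with 0.97 without M2 replicate 1 and 0.09 at another probe. Cd68 and Mertk had intervals of -0.71 to -0.15 and -0.12 to 0.59.

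Of 26 lysosome and proton pump genes, 1 was higher in M1, 4 higher in M2 and 21 not called, with a median of -0.32. Among the pump subunits Atp6v0d2 and Atp6v0a1, both of the membrane sector, were higher in M2, Atp6v0a1 at 3921 and 3593 units in the M2 arrays and 389.9, 488 and 431 units in the M1 arrays (log2 difference -3.11, standard error 0.14, adjusted p = 9.3e-08), while Atp6v0d1, the paralog of Atp6v0d2, had means of 2738 units in M1 and 3396 in M2 and an interval of -0.58 to -0.04. Lipa, the acid lipase, differed by -1.62, and Ctsc, which activates granule proteases, was higher in M1, at 10436, 10872 and 10303 units in the M1 arrays and 3016 and 4119 units in the M2 arrays (log2 difference 1.58, standard error 0.15, adjusted p = 2.7e-05). Lamp1, Ctsd, Ctsb and Ctsz were bright in both groups, with M1 means of 10933, 15367, 16864 and 13759 units and differences of -0.02, 0.18, -0.10 and 0.04.

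Of 17 Fc receptor and complement genes, 3 were higher in M1, 1 higher in M2, or 2 without M1 replicate 1 or M2 replicate 2, and 13 not called, with a median of 0.10. Fcgr1, the high-affinity IgG receptor, was at 3437, 4104 and 2690.4 units in the M1 arrays and 453 and 453 units in the M2 arrays (log2 difference 2.89, standard error 0.17, adjusted p = 7e-07), and Fcgr4, which binds IgG as well, differed by 1.93, while Fcgr2b, the inhibitory receptor, had an interval of 0.00 to 0.65 and Fcgr3 (-0.98) missed 2-fold. Itgax, the CD11c integrin chain, was at 8095 and 9624 units in the M2 arrays and 586, 531 and 912 units in the M1 arrays (log2 difference -3.75, standard error 0.21, adjusted p = 4.8e-07), whereas Itgam, the CD11b chain, had an interval of -0.26 to 0.47. The C1q genes C1qa, C1qb and C1qc differed by -0.21, -0.41 and -0.43 and were not called.

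Arginine metabolism showed the arginases on opposite sides. Of 15 genes of arginine, nitric oxide and polyamines, 3 were higher in M1, 3 higher in M2 and 9 not called, with a median of 0.11, and without M1 replicate 1 only 1 was called higher in M2. Nos2, the inducible nitric oxide synthase, was at 273, 113 and 175 units in the M1 arrays and 37.9 and 40.5 units in the M2 arrays (log2 difference 2.17, standard error 0.28, adjusted p = 0.00027). Arg2, the mitochondrial arginase, was at 222, 90.1 and 172 units in the M1 arrays and 38.9 and 48.7 units in the M2 arrays (log2 difference 1.79, standard error 0.30, adjusted p = 0.0017). The M2 arrays stood near the array median for both, and with a lower limit of 64 units neither passed, with adjusted p of 0.0571 and 0.112 from limma. Gch1, which makes the cofactor of nitric oxide synthases, differed by 1.34, and by 0.89 at another probe. The arginine transporter Slc7a1 (-1.07) and the spermidine synthase Srm (-1.03) were higher in M2 but under 2-fold without M1 replicate 1 (-0.94 and -0.93), as was Slc7a1 without M2 replicate 2 (-0.92) and Srm without M2 replicate 1 (-0.92). Odc1 and Ass1 differed by -0.45 and 0.46 and were not called.

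Of 18 genes of iron and heme handling, 5 were higher in M1, 1 higher in M2 and 12 not called, with a median of 0.31. Hp, haptoglobin, was at 853, 775 and 958 units in the M1 arrays and 37.5 and 45.2 units in the M2 arrays (log2 difference 4.38, standard error 0.14, adjusted p = 1.3e-08) and Cp, the ferroxidase ceruloplasmin, at 1509, 1216 and 1625 units in the M1 arrays and 120.3 and 178 units in the M2 arrays (log2 difference 3.30, standard error 0.18, adjusted p = 4.8e-07). Slc11a1, the phagosomal metal pump Nramp1, differed by 1.80, and Hmox1, which breaks down heme, was at 15250.4, 13106 and 11909.6 units in the M1 arrays and 5872 and 5749.7 units in the M2 arrays (1.20). Tfrc, the transferrin receptor, was the member higher in M2, at 3731 and 3534 units in the M2 arrays and 826, 669 and 951 units in the M1 arrays (log2 difference -2.17, standard error 0.16, adjusted p = 3.5e-06), and a second was called without M1 replicate 1, M1 replicate 2 or M2 replicate 2. Fth1, the ferritin heavy chain, was at 28253 and 26296 units on average, with an interval of -0.16 to 0.37.

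Most glucose metabolism genes were not called. The share called was above that of all genes, but this does not measure enrichment. The list was written with results of these data known, and only 51.7% of all genes had both means above 64 units. Of 20 genes of glycolysis and the pentose phosphate pathway, 5 were higher in M1, 1 higher in M2, or 2 without M2 replicate 2, and 14 not called, with a median of 0.33. Pfkfb3, whose product drives phosphofructokinase, was at 1874, 1388 and 1352 units in the M1 arrays and 149 and 160.3 units in the M2 arrays (log2 difference 3.30, standard error 0.16, adjusted p = 1.8e-07). The isoforms of phosphofructokinase divided, with Pfkl, the liver form, at 1468, 1172 and 1552 units in the M1 arrays and 522 and 676 units in the M2 arrays (1.22) and Pfkp, the platelet form, at 2082 and 2325 units in the M2 arrays and 726, 798 and 801 units in the M1 arrays (log2 difference -1.51, standard error 0.13, adjusted p = 1.1e-05). Hif1a differed by 1.24 and the lactate exporter Slc16a3 by 1.10, the latter 0.96 without M1 replicate 1 and 0.95 without M2 replicate 1. Ldha, Pkm, Hk2 and Slc2a1 had intervals within 2-fold, such as -0.09 to 0.47 for Ldha.

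Genes of the mitochondrial respiratory chain differed by less than 2-fold between the states. All 22 measured genes of the respiratory chain had an interval within 2-fold, from a difference of -0.59 for Ndufa4 to 0.57 for Cycs, cytochrome c. Of 22 genes of the TCA cycle and itaconate, 1 was higher in M1, 2 higher in M2 and 19 not called, with a median of -0.25. Acod1, which makes itaconate, was at 14790.3, 15047 and 15081 units in the M1 arrays and 4581 and 8069 units in the M2 arrays (log2 difference 1.30, standard error 0.20, adjusted p = 0.00099), and its difference was 0.89, under 2-fold, without M2 replicate 1. Idh1, the cytosolic isocitrate dehydrogenase, and Aco1 were just past 2-fold, at -1.04 and -1.01, and neither was called without M1 replicate 1 or M1 replicate 3, nor Idh1 without M2 replicate 1 or Aco1 without M2 replicate 2. The intervals of Sdha and Sdhb, subunits of succinate dehydrogenase, were -0.68 to -0.14 and -0.11 to 0.46.

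In a list of 24 genes linked to fatty acid uptake and oxidation, 4 were higher in M2 and none higher in M1, with a median of -0.47. These were Pparg, Cd36, Lipa and Fabp4, a fatty acid carrier at 1056 and 756 units in the M2 arrays and 95.7, 181 and 91.5 units in the M1 arrays (log2 difference -2.94, standard error 0.27, adjusted p = 2e-05). Pparg, Cd36 and Lipa were already reported above with other lists, so their calls are not separate results, as with genes shared by other lists. The oxidation enzymes Acadm and Hadh differed by -0.62 and -0.65 and Cpt1a by 0.36, and none was called. Of 23 genes of cholesterol synthesis and efflux, 3 were higher in M1, or 1 without M1 replicate 3 or M2 replicate 1, and 1 higher in M2. The member called with any array left out was Nr1h3, the oxysterol receptor LXRα, at 524, 837 and 738 units in the M1 arrays and 223 and 223 units in the M2 arrays (log2 difference 1.62, standard error 0.18, adjusted p = 0.0001), and the member higher in M2 was Ch25h. The synthesis enzymes Mvd and Fdft1 differed by 1.13 and 1.08, by 0.94 and 0.89 without M1 replicate 3 and by 0.75 and 0.57 without M2 replicate 1. Hmgcs1, Sqle and Apoe differed by -0.12, -0.10 and -0.20.

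Of 21 genes of the ATF4 stress response, 1 was higher in M1, 6 higher in M2 and 14 not called, with a median of -0.37. The serine synthesis enzymes stood together on the M2 side. Psat1 was at 1831 and 1748 units in the M2 arrays and 314, 542 and 307 units in the M1 arrays (log2 difference -2.26, standard error 0.22, adjusted p = 3.4e-05), Phgdh at 2387 and 1405 units in the M2 arrays and 564, 637 and 728 units in the M1 arrays (-1.52) and Psph differed by -1.07, or by -0.89 without M2 replicate 1. Shmt2, which passes the carbon of serine into folate metabolism, was at 1178 and 1358 units in the M2 arrays and 364, 516 and 499.8 units in the M1 arrays (log2 difference -1.48, standard error 0.17, adjusted p = 0.0001). Atf4 itself had means of 5325 units in M1 and 4958 in M2 and an interval of -0.21 to 0.41. Slc7a11, the cystine transporter, was the member higher in M1 (1.54), with M1 replicate 2 the lowest M1 array at 761 units, and was not called without M2 replicate 1 (1.22, adjusted p = 0.142 from limma) or at another probe (-0.07).

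Of 19 genes of eicosanoid synthesis and receptors, 2 were higher in M1, 3 higher in M2 and 14 not called, with a median of -0.14. Ptgs2, the inducible cyclooxygenase, was at 1726, 489 and 1420.4 units in the M1 arrays and 26.9 and 43.8 units in the M2 arrays (log2 difference 4.95, standard error 0.43, adjusted p = 1.5e-05), and Ptges, which makes prostaglandin E2 from its product, at 4428, 2646 and 3949.7 units in the M1 arrays and 68.1 and 79.3 units in the M2 arrays (log2 difference 5.61, standard error 0.20, adjusted p = 2.3e-08). Tbxas1, the thromboxane synthase, was at 2105 and 2164 units in the M2 arrays and 534, 746 and 660.4 units in the M1 arrays (log2 difference -1.74, standard error 0.15, adjusted p = 1.7e-05), and Ltc4s, which makes leukotriene C4, differed by -1.13. Ptger4, a prostaglandin E2 receptor, differed by -1.30, and was not called when any of 4 arrays was left out, namely M1 replicate 1 (adjusted p = 0.106), M1 replicate 3 (0.107), M2 replicate 1 (0.0928) or M2 replicate 2 (0.251).

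Of 21 chemokine and peptide receptors, 6 were higher in M1, 4 higher in M2 and 11 not called, with a median of -0.01. Gpr18, a lipid receptor, was at 1256, 1451 and 1536 units in the M1 arrays and 76.8 and 48.5 units in the M2 arrays (log2 difference 4.53, standard error 0.19, adjusted p = 6e-08). Ccr7, which guides cells to lymph nodes, was at 685, 200.2 and 505 units in the M1 arrays and 23.2 and 25.4 units in the M2 arrays (log2 difference 4.08, standard error 0.39, adjusted p = 2.8e-05), with M1 replicate 2 lowest. Ccrl2, an atypical chemokine receptor, differed by 4.35 and Gpr84, a receptor for medium-chain fatty acids, by 2.25. P2ry1, a receptor for ADP, was at 312 and 257 units in the M2 arrays and 39.2, 28.4 and 21.6 units in the M1 arrays (log2 difference -3.29, standard error 0.22, adjusted p = 1.6e-06), and Gpr183, a receptor for oxysterols, at 534 and 493 units in the M2 arrays and 79.8, 125 and 102 units in the M1 arrays (log2 difference -2.35, standard error 0.18, adjusted p = 4.7e-06). Ccr1, Cxcr4 and P2rx4 differed by -0.43, -0.32 and 0.11.

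Of 21 genes of the Ms4a, Schlafen, Cd300 and paired receptor families, 14 were higher in M1, 3 higher in M2 and 4 not called, with a median of 1.41. Slfn4 and Slfn1, Schlafen genes of myeloid cells, differed by 6.19 and 5.60, Slfn8 by 3.34 and Slfn2, bright on both sides, by 1.12. The Cd300 family divided. Cd300lf, an inhibitory receptor, was at 1686, 2299 and 1626 units in the M1 arrays and 208 and 135 units in the M2 arrays (log2 difference 3.46, standard error 0.20, adjusted p = 6.9e-07), while Cd300lb, an activating receptor, was at 3186 and 3452 units in the M2 arrays and 224, 367 and 237 units in the M1 arrays (log2 difference -3.63, standard error 0.20, adjusted p = 4e-07), Cd300ld at 4231 and 4002 units in the M2 arrays and 324, 387 and 313 units in the M1 arrays (-3.60) and Cd300a differed by -1.95. The paired receptors Pilra (2.75) and Pilrb1 (3.22) were both higher in M1, and Ms4a7, a marker of mature macrophages, had an interval of -0.53 to 0.06.

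Some genes that the study names differed little between M1 and M2 but stood far from M0. Slc7a2, a transporter of arginine, was at 3522, 1842 and 3655 units in the M1 arrays and 2245 and 2665 units in the M2 arrays, with M0 arrays at 14.3 to 24.9 units, and the difference of 0.23 had an interval of -0.33 to 0.80 at its brightest probe, although 2 of its other probes were called higher in M1 (1.12 and 1.43). F10, coagulation factor X, was at 1273, 1103 and 1458 units in the M1 arrays and 911 and 1271 units in the M2 arrays, with M0 arrays at 73.1 to 119 units and an interval of -0.14 to 0.62. AA467197, also far above its M0 arrays of 49.2 to 79.8 units, was at 2698, 1468 and 2054 units in the M1 arrays and 1111 and 1436 units in the M2 arrays, with an interval of 0.18 to 1.17 and an adjusted p of 0.069 from limma, so that neither a difference nor its absence was shown. Plpp1, a lipid phosphatase, differed widely, and was at 1735, 2052 and 1928 units in the M1 arrays and 104 and 99.1 units in the M2 arrays (log2 difference 4.23, standard error 0.13, adjusted p = 7.2e-09), with M0 arrays at 40.6 to 56.1 units. Slc40a1, the iron exporter ferroportin, was low in both states, at 97.2, 72.5 and 100.4 units in the M1 arrays and 147 and 130.4 units in the M2 arrays, against M0 arrays at 1435 to 2392 units. Its difference of -0.64 was under 2-fold, as was that of the dicarboxylate transporter Slc13a3 (-0.20), with M0 arrays at 1745 to 2163 units.

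The spread between arrays of 1 state followed gene groups. Among the 12 cytokine genes higher in M1, M1 replicate 2 was the lowest M1 array in 9 and the highest in 2. In the 28 interferon genes it was lowest in 5 and highest in 20, and in the 7 GTPases called it was lowest in none and highest in 6. Over all 622 genes higher in M1 it was lowest in 249 and highest in 234. Of the M2 arrays, replicate 1 was the higher in all 41 cell division genes called and replicate 2 in all 6 MHC class II genes. Over all 728 genes higher in M2, replicate 1 was the higher in 66.6%. M2 replicate 2 was also the higher in all 11 NF-κB genes, which were called higher in M1. It was the higher in 332 of all 622 genes higher in M1. With 3 and 2 arrays no test of an outlying array was made, and the part of this spread in the calls was not tested beyond leaving out arrays.

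**Figure D4:**
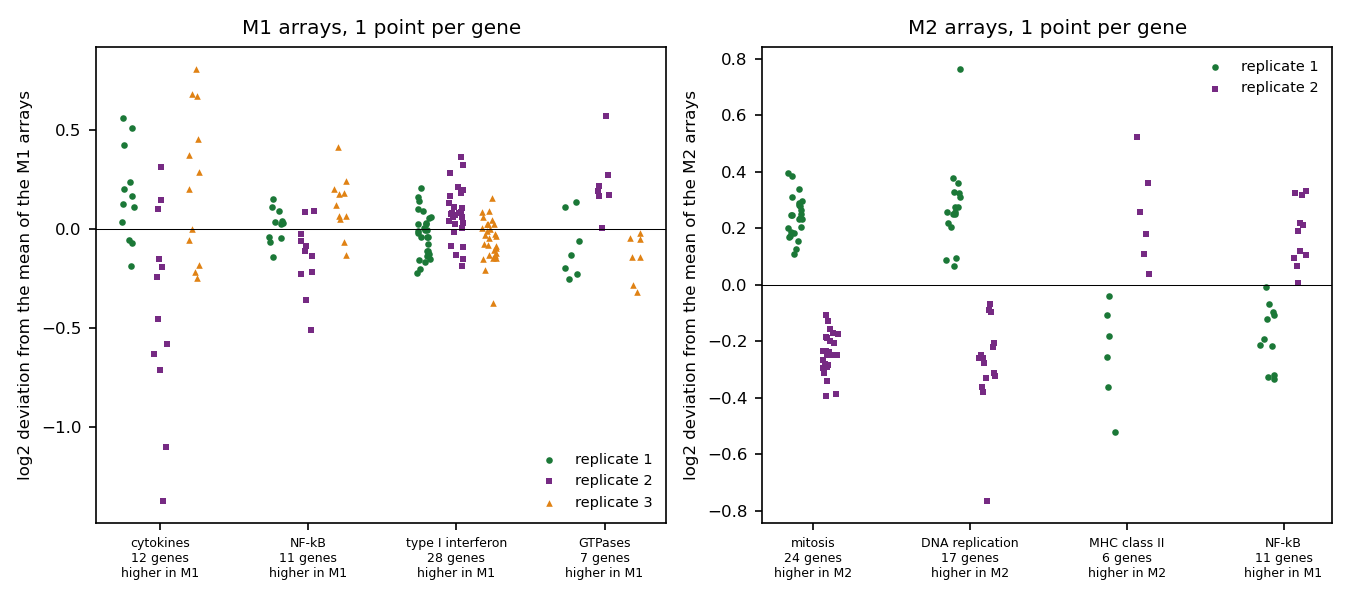
Log2 deviation of each array from the mean of its own group (vertical axis), for genes called in the named lists, with M1 arrays on the left and M2 arrays on the right and 1 point per gene and array. M1 replicate 2 (purple squares, left) lies low for cytokines and high for interferon genes and GTPases, and M2 replicate 1 (green circles, right) lies above replicate 2 for every cell division gene and below it for every MHC class II and NF-κB gene.

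The labelled cell type was checked with marker genes. All 16 macrophage identity genes were measured, with Lyz2, Csf1r, Cd68 and Tyrobp at means of 22109, 13065, 9192 and 9265 units in M1 and 18269, 14046, 12382 and 10687 in M2. Of the 16, 5 were higher in M1, namely Fcgr1, Cd14, Cd33, Adgre1 and Aif1, and none higher in M2, with a summed level of 121500 to 126500 units in M1 and 91180 to 95440 in M2 arrays. Adgre1, which encodes F4/80, was at 10930.1, 11042 and 10062 units in the M1 arrays and 4467 and 4735 units in the M2 arrays (1.21).

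Most markers of other cell types were near background, but some had clear signal, called or not. None of the 8 B cell, 7 NK cell, 7 dendritic cell or 5 erythroid markers was called. In T cells 1 of 9 was, Il7r, the IL-7 receptor, at 2299.8 and 2726 units in the M2 arrays and 462, 387 and 343 units in the M1 arrays (log2 difference -2.67, standard error 0.15, adjusted p = 6.4e-07), with a summed level over the 9 of 1026 to 1182 units in M1 and 2990 to 3472 in M2, while the defining genes Cd3d and Cd3g had M2 means of 27.2 and 9.17 units. Il7r made up only part of the sum in M1, so T cell markers that were not called also had signal. Of the 9 markers, 4 were under the array median in both groups. In endothelial cells 2 of 9 were called, Vwf at 934 and 937 units in the M2 arrays and 46.3, 52.3 and 39.3 units in the M1 arrays (log2 difference -4.36, standard error 0.14, adjusted p = 1.3e-08) and Flt1 (-2.64), with summed levels of 359 to 432 units in M1 and 1593 to 1717 in M2, while Pecam1 and Cdh5 had M2 means of 30.5 and 17.0 units. Hdc, which makes histamine, was the 1 of 9 mast cell markers called, at 263, 99.1 and 232 units in the M1 arrays and 48.2 and 39.6 units in the M2 arrays (2.06), with Cpa3 and Kit at M1 means of 20.0 and 18.1 units. Dcn of fibroblasts (1.31), Camp of neutrophils (1.05), and Siglecf and Ccr3 of eosinophils (-1.47 and -1.42) passed at low levels, with the highest array at 68.4 units for Dcn, and without M2 replicate 1 no marker higher in M1 was called for fibroblasts or neutrophils, while 1 neutrophil marker was called higher in M2. The summed levels in M1 and M2 were 301 to 457 and 268 to 368 units for fibroblast, 308 to 387 and 296 to 377 for neutrophil, and 89.2 to 105 and 138 to 146 for eosinophil markers. The part of these genes in the other differences was not tested.

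**Figure D5:**
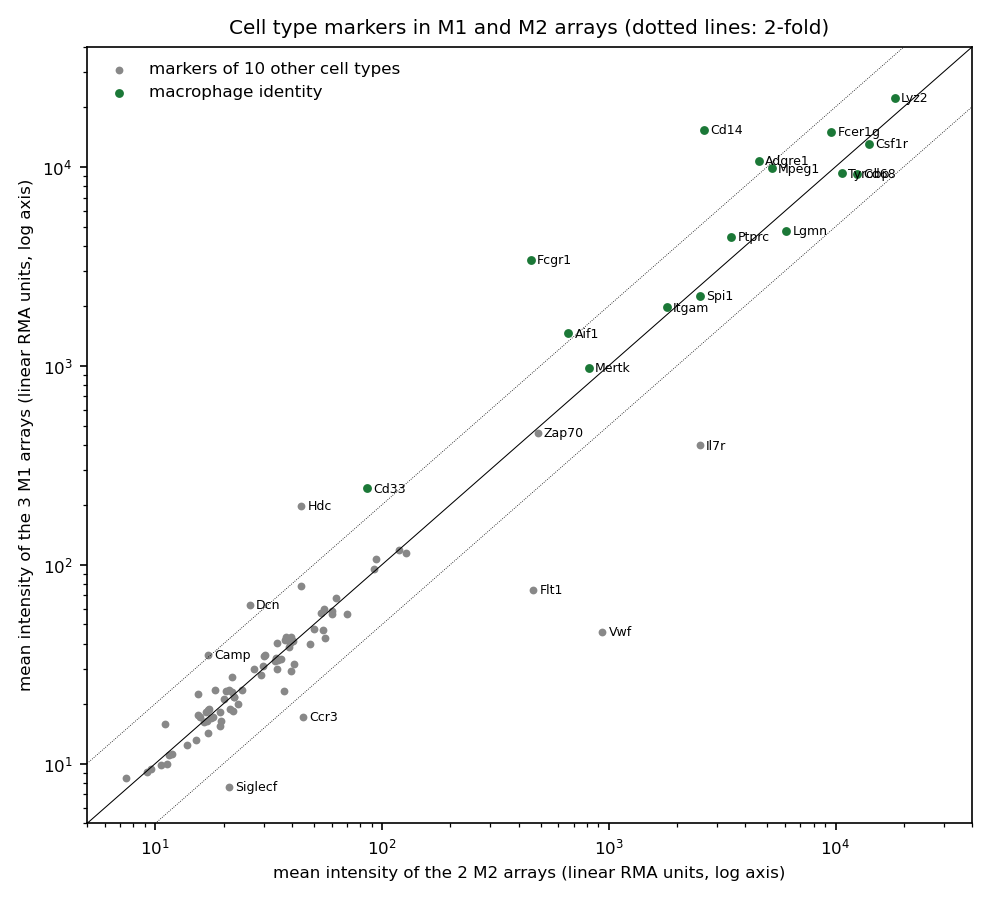
Mean intensity of the 3 M1 arrays (vertical axis) against that of the 2 M2 arrays (horizontal axis), both in linear units on log axes, for macrophage identity genes (green) and markers of 10 other cell types (grey), with the line of equality and dotted 2-fold lines. Macrophage genes are bright in both states, and most other markers lie under 100 units on the line of equality, except for Il7r, Vwf and Flt1 on the M2 side and Hdc on the M1 side. Il7r is not the only T cell marker above 100 units.

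How far the probes of a gene agreed was checked for the 9010 genes with 2 or more probes. In 983 of them at least 1 probe was called, in none were probes called in both directions, and in 291 (29.6%) every probe was called the same way. Another 233 called probes, 9.25% of the total, carry no symbol or several in the annotation used here and are left out of the counts of genes.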

How the data were processed

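The arrays were Affymetrix Mouse Genome 430 2.0, and per the study's methods the authors normalized them with RMA in GenePattern and deposited intensities on a linear scale. RMA quantile normalization gives all arrays nearly the same distribution, so a shift of all genes cannot be seen. The deposited intensities were taken to log2, the 64 control probes dropped and 45037 probes fitted with limma 3.58.1 in R 4.3.3 (lmFit and eBayes, group means of 3 M1 and 2 M2 arrays, 3 residual degrees of freedom), with Benjamini-Hochberg adjustment over all probes. A gene was called at an adjusted p under 0.05 and at least 2-fold. Array annotation gave 1 symbol to 34945 probes, several to 932 and none to 9160, and each of 18193 genes was represented by its probe of highest mean log2 intensity over all 8 arrays.

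Lists and members were chosen with earlier results of these data known. Genes were named by size of the difference, by rank within a list, by mention in the study and, among list members, by an interval within 2-fold. Other genes were named after their values were seen. The fit was tested on simulated data with known changes. Alternatives were the methods' t-test, a replicate block, all 8 arrays, intensity trend with robust variances, further quantile normalization, median centring, lower limits on intensity, other thresholds, other ways to join probes and leaving out each array. Promoters were from RefSeq, build GRCm38.p6. Python 3.11.15 with matplotlib 3.10.9 made the figures. RT-PCR, flow cytometry and raw images were not analysed here, and a few genes of the study are left out of this account.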

Additional observations from a re-analysis of the deposited data

How the results depend on the processing

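None of the 223 genes named by the rule changed sign under the alternatives run, but the side with more calls depended on the setting: 622 genes were higher in M1 and 728 in M2 macrophages, against 306 and 249 with the methods' t-test on log2 values and 208 and 199 at 4-fold. Among neutrophil markers, 1 was higher in M1 and none in M2, but none and 1 without M2 replicate 1, and STAT and SOCS genes went from 3 and 5 to 8 and 7 at any fold. The methods' t-test with adjustment gave fewer calls, on log2 values 494 and 469 probes, 306 and 249 genes and 86 and 56 list members higher in M1 and in M2, and on linear values 234 and 429 probes, 150 and 218 genes and 39 and 45 list members. Without a limit on fold 3434 and 4021 probes, 1790 and 1974 genes and, in M2, 222 list members were called, and at 4-fold or more 360 and 372 probes, 208 and 199 genes and 89 and 71 list members. Leaving out 1 array at a time gave 1119 to 1196 and 1252 to 1529 probes, 607 to 626 and 649 to 795 genes and 139 to 146 and 128 to 142 list members. The other settings kept these pooled counts within 1.5 times, but not every list: TCA cycle genes higher in M2 went from 2 to 0, cholesterol genes higher in M1 from 3 to 1 and pattern recognition receptors higher in M2 from 2 to 1 with the replicate block. Arginine genes higher in M1 went from 3 to 1 and eosinophil markers higher in M2 from 2 to 0 with a lower limit of 64 units, and the ATF4 gene higher in M1 from 1 to 0 with an intensity trend and robust variances. M1 and M2 arrays share 2 replicate numbers, but no source says that a number marks a shared mouse, so the numbers were not taken as pairs. The deviations of the numbered arrays from their group means correlated at -0.086 and -0.147. With 2 M2 arrays these deviations are exact opposites, so the 2 values are not independent and cannot decide whether a mouse was shared. With the replicate block, which leaves 1 residual degree of freedom, 1203 and 1360 probes, 630 and 715 genes and 142 and 136 list members were called. Of the 223 genes, 102 lost their call with the methods' t-test on log2 values with adjustment and 148 on linear values, 13 of 106 with several probes at the median over their probes, 6 lost their call with the block, 10 with an intensity trend and robust variances, 19 with a lower limit of 64 units and 15 without M2 replicate 1. Signal near background limits the size of differences: the lower group's mean lay under the array median in 78 of 622 genes higher in M1 and in 132 of 728 higher in M2.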
